A study of Mus musculus with 20 samples.

Results

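Untreated primary renal tubular epithelial cells from Ptprz1 knockout (KO) and heterozygous (het) mice were compared by RNA sequencing. The comparison rests on 8 of the 20 libraries of the series, het control replicates 1 to 4 and KO control replicates 1, 2, 3 and 5. Het control replicate 5 and KO control replicate 4 were left out because their interferon targets were induced. The libraries were thus chosen by measured values, and het replicates 1 and 4 were singled out by their high level of proximal tubule genes, so the interferon and proximal tubule genes are described below without a test. All cells carried the targeted allele of the strain labelled B6.129-Ptprz1tm1Nmo, on 1 chromosome in the het group and, by its label, on both in the KO group, so no wild-type cells were included. They were primary cultures from kidneys in serum-containing medium with EGF, prostaglandin E2, triiodothyronine, hydrocortisone, epinephrine and insulin, transferrin and selenite. No stimulus was added. Elsewhere in the series cells received LPS at 100 ng/mL and IFNγ at 10 ng/mL for 24 h. Summed over 22 interferon targets, the left-out het control 5 and KO control 4 held 3166 and 6161 CPM (counts scaled to a common library size), against 237 to 380 CPM in the 8 libraries kept. The libraries labelled as stimulated het replicate 5 and KO replicate 4, from the same animals as those controls, held 241.8 and 292.4 CPM, against at least 16980 CPM in the other stimulated libraries, so these 4 libraries go against their treatment labels. The 8 libraries came from 8 different animals. Animals 5 and 7 are listed under both genotypes in the series and gave KO replicate 2 and het replicate 3 here. The ages of the animals and how many mice each culture pooled are not stated in those sources, so p-values measure only the spread between these libraries.

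Ptprz1 encodes a receptor-type tyrosine phosphatase best known from the nervous system, with pleiotrophin, midkine, tenascin C and interleukin 34 among its ligands. The proximal tubule is the nephron segment that reclaims most filtered solute and protein. Its cells depend on fatty acid oxidation and on transcription factors such as Hnf4a, and they lose many of their transporters and enzymes when they are cultured or injured. The question the comparison addresses is whether tubular cells without Ptprz1 differ from het cells before any inflammatory stimulus.

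Total counts were 12899528 to 20411411 in the 8 libraries. All 8 expressed the renal epithelial factors Pax8 (134 to 238 CPM) and Pax2 (60.6 to 133 CPM). Of the defining transporters of the differentiated proximal tubule, the phosphate transporter Slc34a1 was at 0.767 CPM or less and the glucose transporter Slc5a2 at 0.357 CPM or less, while others were high in het replicates 1 and 4. The 25 listed transporters summed to 816 and 970 CPM there and to 139 to 222 CPM in the other 6 libraries. The distal markers Umod, Slc12a3 and Aqp2 stayed at 0.268 CPM or less and the podocyte marker Nphs1 at 0.584 CPM or less. The epithelial cadherin Cdh1 was 68.4, 0.638, 18.8 and 81.2 CPM in het replicates 1 to 4 and 73.0, 27.1, 0.701 and 0.365 CPM in KO replicates 1, 2, 3 and 5. Cdh1 was therefore near 0 in 1 het and 2 KO cultures labelled as tubular epithelium. The fibroblast collagen Col1a1 was 29.1, 532, 7620 and 288 CPM in het and 693, 1108, 653 and 510 CPM in KO, with het replicate 3 far above the others. Xist and Y-linked genes gave 2 males (replicates 1 and 4) and 2 females in het, and 3 males and 1 female (replicate 3) in KO.

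On a principal component analysis of the 8 libraries, the first component held 54.6% of the variance. Het replicates 1 and 4 scored −88.0 and −75.5 on it, and the other 6 libraries scored −9.16 to 51.7, with KO and the remaining het libraries interspersed.

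**Figure D1:**
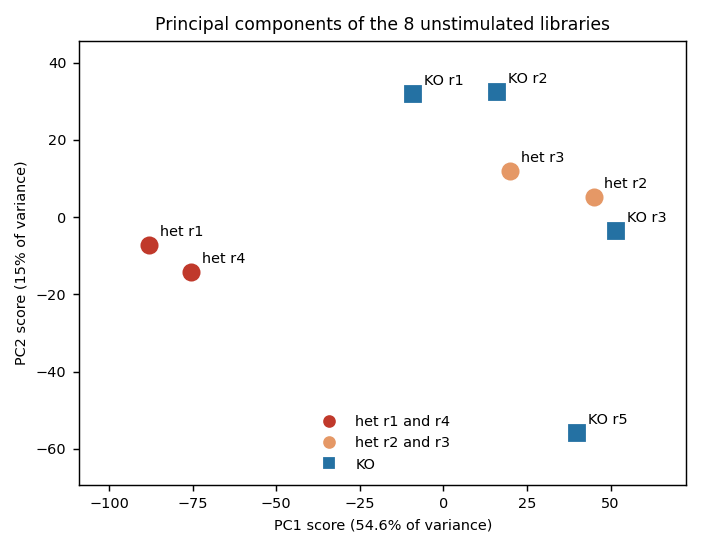
Scores of the 8 unstimulated libraries on the first and the second principal component of log2 CPM, 1 point per library. Het replicates 1 and 4 lie at −88.0 and −75.5 on the first axis, and the other 2 het libraries lie among the 4 KO libraries.

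2 promoters are shown because they belong to motile cilium genes. Most tested genes of this kind had a fitted KO value above het that was not carried by het replicates 1 and 4. Each is the 250 bases before the annotated start, on the gene's strand, from the RefSeq table of build GRCm38.p6. The capitals mark GTTGCC or GGCAAC, the core of the motif bound by RFX factors, which drive ciliary genes. Drc1 encodes a subunit of the nexin-dynein regulatory complex and lies on the + strand at chr5:30281143-30281392. Cfap44 encodes a protein of the ciliary axoneme and lies on the + strand at chr16:44394549-44394798.
Drc1: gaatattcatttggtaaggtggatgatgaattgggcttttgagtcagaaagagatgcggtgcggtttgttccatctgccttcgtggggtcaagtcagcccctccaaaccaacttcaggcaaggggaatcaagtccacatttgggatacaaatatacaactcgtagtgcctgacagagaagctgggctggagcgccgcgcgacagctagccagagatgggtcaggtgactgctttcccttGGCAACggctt
Cfap44: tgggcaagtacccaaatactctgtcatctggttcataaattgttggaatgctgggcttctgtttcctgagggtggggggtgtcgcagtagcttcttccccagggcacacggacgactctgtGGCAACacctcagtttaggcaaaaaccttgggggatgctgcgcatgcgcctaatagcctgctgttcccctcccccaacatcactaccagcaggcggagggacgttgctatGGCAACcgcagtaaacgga

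At least 1 promoter held the RFX letters for 15 of 41 cilium genes with a promoter (36.6%). The share was 11.8% of all 27025 genes with a promoter and 6 of 47 proximal tubule genes (12.8%). The letters were searched on both strands, and the motif was chosen after the expression values were seen. Of the 6 cilium genes with an unadjusted p under 0.05 and KO above het, only Drc1 was among the 15 with a match. Mcidas and Ccno, both nearly silent in these cells, were also among the 15. A match describes the sequence only, and its relation to the KO and het values was not tested.

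No gene passed the test for a difference between KO and het cells. Of 13762 genes tested with edgeR's quasi-likelihood test, 0 (0%) reached a Benjamini-Hochberg adjusted p under 0.05, and the lowest adjusted p was 0.792. At an unadjusted p under 0.05 there were 609 genes (4.43%), 190 with the KO value above het (1.38%) and 419 with it below (3.04%). DESeq2 also called 0 genes, with 910 at an unadjusted p under 0.05 and a lowest adjusted p of 0.190, and limma-voom called 0 with 492. The sizes that the data leave room for differed between genes. The 95% interval of the log2 fold change lay within 1 log2 unit of 0 for 68.6% of genes, with a median interval of 0.45 to either side, while 704 genes (5.12%) had a fitted difference above 1 log2 unit in size. Beta-catenin (Ctnnb1), for example, had an interval of −0.23 to 0.35 and the junction protein Tjp1 one of −0.24 to 0.24, whereas that of the cadherin Cdh1 ran from −4.30 to 2.80.

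Ptprz1 itself was too low in these cells to check the genotypes. It was counted 0, 4, 0 and 3 times in het replicates 1 to 4 and 0, 0, 1 and 0 times in KO replicates 1, 2, 3 and 5. The mean was 0.102 ± 0.125 CPM in het and 0.0146 ± 0.0292 CPM in KO (SD, n = 4 each), and an exact two-sided permutation test gave p = 0.429. 5 of the 8 libraries had no count, which allows a level of up to 0.134 to 0.219 CPM depending on the library (3 counts of its total, counting error only). KO control replicate 4, which was left out, held 6 counts, more than any of the 4 het libraries. The other library of that animal, labelled stimulated KO replicate 4, held 7 counts. Het control replicate 5 and stimulated het replicate 5, from 1 animal, held 0 counts each. Whether these counts bear on the genotype labels was not tested. With all 10 control libraries the difference was 0.0049 CPM in the other direction (exact p = 1).

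Genes of the proximal tubule set het replicates 1 and 4 apart from the other het libraries as much as from KO. Hnf4a, a driver of proximal tubule identity, was 174, 0.957, 0.219 and 77.1 CPM in het replicates 1 to 4 and 2.91, 0.487, 0.292 and 0 CPM in KO replicates 1, 2, 3 and 5. It was high in 2 het libraries and low in the other 6, so het and KO overlapped. The log2 fold change of Hnf4a was −6.06 ± 2.01 (SE), and 0.68 without het replicates 1 and 4. In cultures of mixed cells, fewer cells of a type and less RNA per cell cannot be told apart.

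The endocytosis genes followed the same libraries. The water channel Aqp1 was 59.2, 0.0638, 7.87 and 84.7 CPM in het and 2.21, 2.87, 0 and 0.511 CPM in KO. The scavenger receptor Cubn was 31.9, 3.95, 4.97 and 17.2 CPM in het and 6.52, 6.93, 4.62 and 2.41 CPM in KO. In both genes het replicates 1 and 4 lay above all others. Het replicates 2 and 3 lay within the KO range for Cubn, while for Aqp1 het replicate 2 lay within it and het replicate 3 above it. Megalin (Lrp2) was 201, 49.6, 26.7 and 232 CPM in het and 116, 96.3, 29.0 and 38.1 CPM in KO, and the amnionless gene Amn was 46.3 and 19.6 CPM in het replicates 1 and 4 and at most 0.638 CPM elsewhere. Dab2, an adaptor of apical endocytosis, was 150, 43.9, 51.0 and 79.3 CPM in het and 34.9 to 60.3 CPM in KO. Of the 5 listed genes 4 passed the filter on low counts, and all 5 were highest in het replicates 1 and 4 (17.4% of all genes tested). The median log2 fold change of the 4 was −1.19, against −0.0022 over all genes. It was −0.68 without het replicate 1, 0.09 without both and −1.95 without het replicates 2 and 3.

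Among 25 solute transporters 24 were detected and 8 passed the filter on low counts. 15 of the 24 detected were highest in het replicates 1 and 4 (17.4% of all genes tested). The neutral amino acid transporter Slc6a18 was 427, 2.17, 3.61 and 550 CPM in het and 17.2, 3.79, 0.760 and 0.730 CPM in KO. KO replicate 1 lay above het replicates 2 and 3 for this gene, and the fitted difference moved from −5.44 ± 1.95 to 0.97 without het replicates 1 and 4. The fatty acid transporter Slc27a2 was 15.04 and 6.04 CPM in those libraries and at most 0.328 CPM elsewhere, which kept it below the filter. The bicarbonate transporter Slc4a4 was 152, 37.5, 69.1 and 94.6 CPM in het and 38.6 to 68.4 CPM in KO. The basolateral amino acid exchanger Slc7a7 overlapped between the groups, at 30.8 to 82.3 CPM in het and 42.0 to 74.7 CPM in KO. The median log2 fold change of the 8 was −0.72, became 0.43 without het replicates 1 and 4 and was −1.27 without het replicates 2 and 3.

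Of 26 enzymes 21 were detected and 10 passed the filter, 9 of them with a negative fitted difference. The glycine acyltransferase-like gene Keg1 was 291, 0.255, 0.984 and 86.5 CPM in het and 1.40, 0.325, 0.292 and 0.948 CPM in KO. Its log2 fold change of −7.01 ± 2.06 became 0.24 when het replicates 1 and 4 were left out. The brush border enzyme Ggt1 was 159, 2.55, 19.01 and 125 CPM in het and 16.2, 5.36, 2.51 and 1.90 CPM in KO. Acsm2, a mitochondrial acyl-CoA synthetase of the proximal tubule, was 1.74 and 2.86 CPM in het replicates 1 and 4 and at most 0.0546 CPM elsewhere. The arginine-making enzyme Ass1 went the other way, at 78.0, 103, 130 and 104 CPM in het and 117, 127, 151 and 255 CPM in KO, with a log2 fold change of 0.64 ± 0.27. The median of the 10 was −1.30, became −0.68 without het replicate 1 and 0.22 without het replicates 1 and 4, and was −2.05 without het replicates 2 and 3.

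Of 18 renal transcription factors 16 were tested, and 4 had an unadjusted p under 0.05 with KO below het (3.04% of all genes in that direction), Hnf4a, which marks the proximal tubule and is only described, among them. Irx3 was 23.2, 5.74, 14.1 and 27.5 CPM in het and 4.33 to 8.02 CPM in KO, and Esrrg was 0.710 to 6.43 CPM in het and 0.815 to 1.53 CPM in KO. The groups overlapped for both through het replicate 2 or 3. Pax8, a factor of the whole tubule, and Cux1 had 95% intervals of −0.40 to 0.46 and −0.14 to 0.36.

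**Figure D2:**
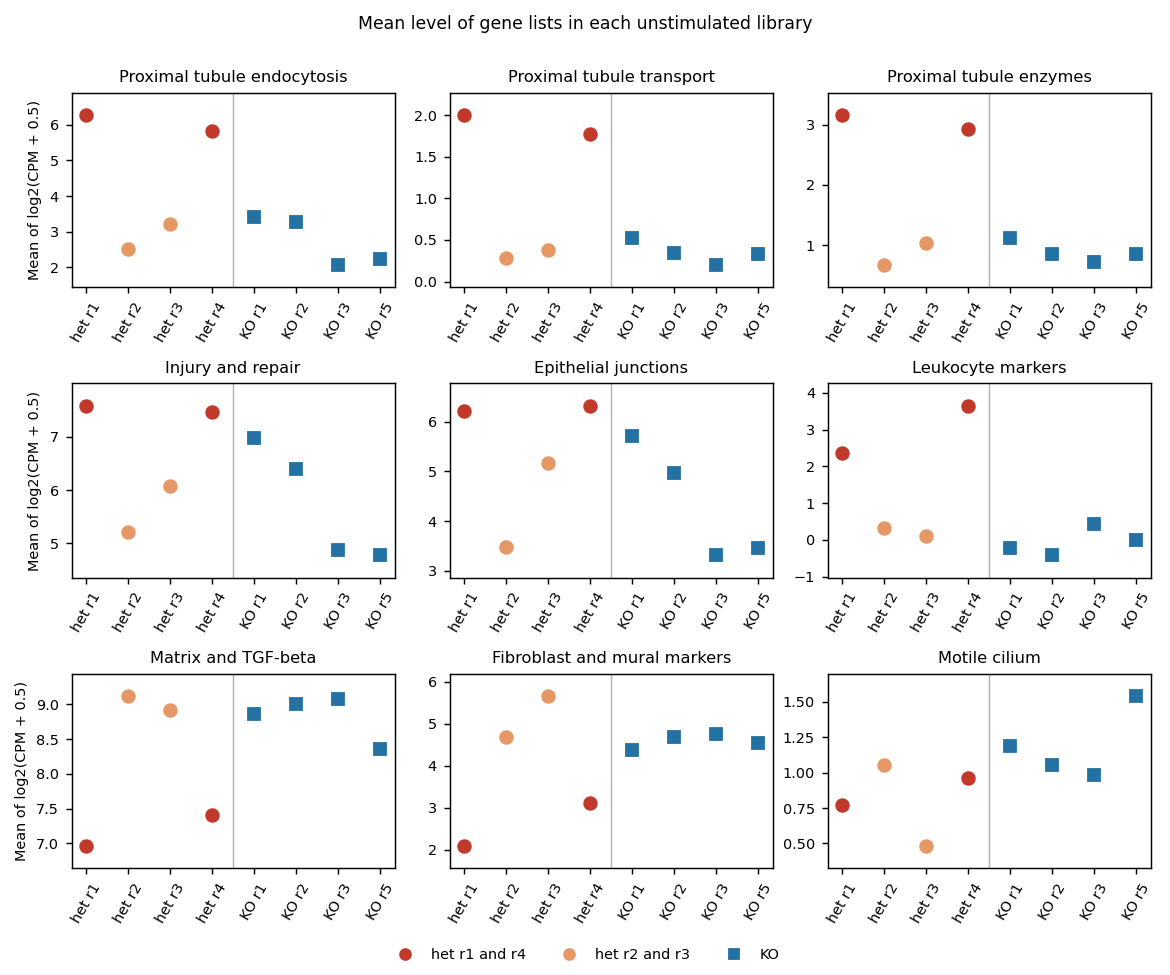
Mean of log2(CPM + 0.5) over the members of 9 gene lists in each of the 8 libraries, 1 point per library, het on the left and KO on the right of each panel. Het replicates 1 and 4 are highest for the proximal tubule and leukocyte lists and lowest for the matrix and fibroblast lists, and for the motile cilium list KO replicates 1 and 5 are highest.

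Of 21 injury and repair genes, which tubular cells switch on after damage, 12 were highest in het replicates 1 and 4 and 3 were lowest there. Over all genes tested these shares were 17.4% and 17.9%. Kidney injury molecule 1 (Havcr1) was 1804, 107, 138 and 1427 CPM in het and 337, 211, 55.6 and 22.0 CPM in KO. Osteopontin (Spp1) was 25260, 2866, 4449 and 9794 CPM in het and 1919 to 5472 CPM in KO, and lipocalin 2 (Lcn2) was 153, 0, 8.09 and 172 CPM in het and 37.9, 8.39, 0 and 0.146 CPM in KO. The low het libraries overlapped KO in all 3 genes. None of the 21 members reached an unadjusted p under 0.05. The median log2 fold change was −0.96, became 0.36 without het replicates 1 and 4 and was −0.045 with all 10 controls. With 1 library left out it was −0.47 (het replicate 1), −0.51 (het replicate 4), −1.60 (KO replicate 1), −0.56 (KO replicate 3) and −0.55 (KO replicate 5), and it was −1.63 without het replicates 2 and 3.

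Epithelial junction genes were detected in every library except 1 member in KO replicate 3, but several were low in some cultures of both genotypes. Claudin 2 (Cldn2), of the leaky proximal tubule junction, was 418, 18.8, 76.2 and 354 CPM in het and 52.0, 26.6, 14.2 and 32.5 CPM in KO, with a log2 fold change of −2.80 ± 0.90 that became −0.60 without het replicates 1 and 4. It was the 1 member of 19 with an unadjusted p under 0.05 (4.43% of all genes), and since it marks the proximal tubule its value is only described. Claudin 4 (Cldn4) was 4.21 CPM in het replicate 2 and 3.97 and 0.875 CPM in KO replicates 3 and 5, against 43.4 to 162 CPM in the other 5 libraries, so both genotypes held low and high cultures. The 95% intervals of Cdh1 (−4.30 to 2.80) and Epcam (−4.16 to 2.36) were wide, while that of the cadherin Cdh2 was −0.43 to 0.45. The median of the list was −0.90, became 0.17 without het replicates 1 and 4 and was −0.082 with all 10 controls. It was larger in size without KO replicate 1 (−2.16), with a sex term (−1.75) and without het replicates 2 and 3 (−1.57), and smaller without het replicate 4 (−0.50), KO replicate 3 (−0.51) or KO replicate 5 (−0.49).

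Markers of leukocytes moved with the same 2 libraries. Lysozyme 2 (Lyz2) was 43.2, 9.76, 4.10 and 214 CPM in het and 0.932, 0.325, 8.53 and 2.70 CPM in KO. The complement gene C1qc was 6.16, 0.893, 0.710 and 20.2 CPM in het and 0.108 to 0.993 CPM in KO, and the pan-leukocyte marker Ptprc was 3.30, 0.191, 0.109 and 7.42 CPM in het and at most 0.292 CPM in KO. Het replicate 4 was highest for all of these, followed by het replicate 1. Summed over the 18 listed markers the level was 181, 34.9, 25.6 and 455 CPM in het and 18.7 to 35.1 CPM in KO. Of the 17 detected, 16 were highest in het replicates 1 and 4 (17.4% of all genes tested). The T cell marker Cd3e was at 0 in all 8 libraries. Of 7 tested 6 had an unadjusted p under 0.05 with KO below het, where 3.04% of all genes did. The other 11 of the 18 did not pass the filter on low counts. Markers at such low levels can pass that filter through the het libraries alone, so this count is only described. The median log2 fold change was −4.09, −2.56 without het replicate 4, −0.52 without both and 0.30 among females. The part of leukocytes in the other results was not tested.

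Of 24 fatty acid oxidation genes 18 were highest in het replicates 1 and 4 (17.4% of all genes tested), and most fitted differences were small and negative. Of 24 members, all tested, 22 had a negative fitted difference, where 49.6% of all genes had a positive one, and 7 had an unadjusted p under 0.05 with KO below het (3.04% of all genes). Medium-chain acyl-CoA dehydrogenase (Acadm) was 103, 67.2, 73.3 and 90.2 CPM in het and 60.9, 55.6, 62.0 and 67.8 CPM in KO. Het replicates 1 and 4 were highest and KO replicate 5 just overlapped het replicate 2. Its log2 fold change was −0.44 ± 0.14 (unadjusted p = 0.0151) and −0.19 without those 2. Ppargc1a, the coactivator that raises mitochondrial gene expression, was 16.9, 0.574, 2.46 and 18.2 CPM in het and 0.867 to 2.56 CPM in KO. Its larger difference of −2.55 ± 0.97 became 0.096 without het replicates 1 and 4. The trifunctional protein gene Hadha was level (interval −0.29 to 0.17). The list's median was −0.33 and became −0.065 without het replicates 1 and 4, with 15 of 24 negative.

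Matrix and mesenchymal genes ran opposite to the proximal tubule genes. Fibronectin (Fn1) was 3341, 22640, 15070 and 3901 CPM in het and 17150, 24560, 21790 and 9619 CPM in KO, and smooth muscle actin (Acta2) was 175, 6175, 4178 and 983 CPM in het and 4190, 6229, 5950 and 2755 CPM in KO. For both genes het replicates 1 and 4 were the lowest of the 8 and the other 2 het libraries lay within the KO range. The metalloproteinase inhibitor Timp3 had the largest fitted difference among 23 matrix genes with the KO value above het after Ltbp2, at 1.04 ± 0.60 against 1.15 ± 0.79. None of the 23 reached an unadjusted p under 0.05, and the median of 0.45 became −0.10 without het replicates 1 and 4. It was 0.17 without het replicate 1, 0.23 without het replicate 4, 0.71 and 0.73 without het replicate 2 or 3, 1.27 with a sex term and 1.93 without het replicates 2 and 3. Col1a1, Col1a2 and Col3a1 had negative fitted differences (−1.52, −1.72 and −1.40), with het replicate 3 holding 7620, 5185 and 1585 CPM against at most 1108, 621 and 277 CPM in any other library of the 8. The direction turned with a sex term (1.05, 0.83 and 1.76) and without het replicates 2 and 3 (2.22, 1.96 and 2.94).

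**Figure D3:**
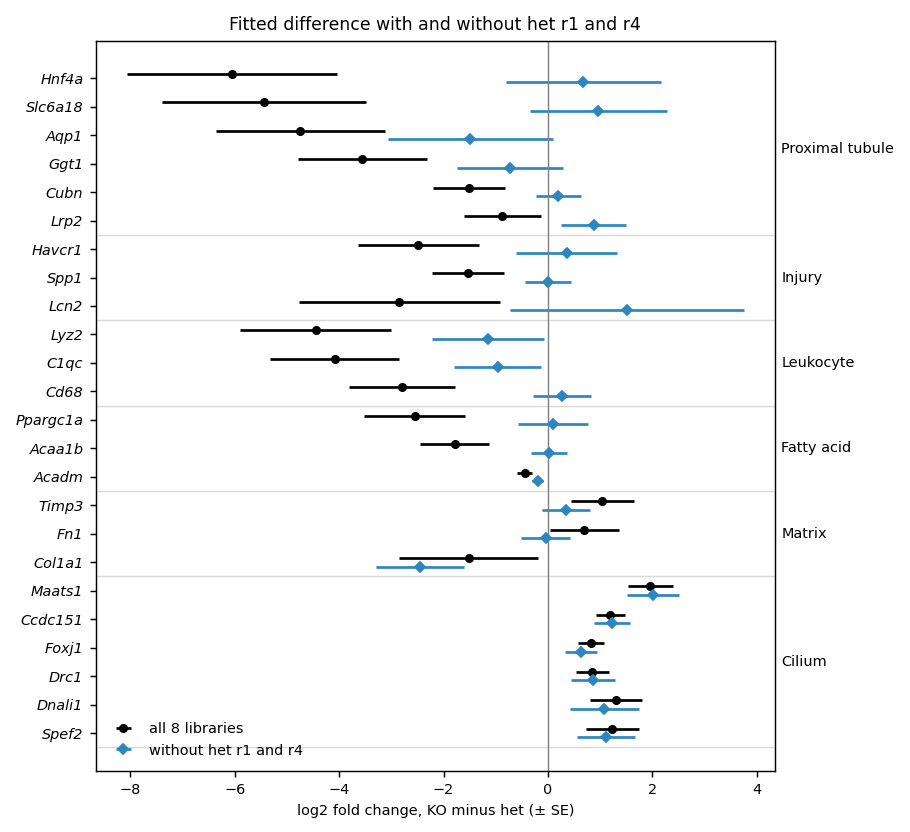
Log2 fold change of KO minus het with its SE for 24 genes of 6 groups, from all 8 libraries (black) and without het replicates 1 and 4 (blue). Each proximal tubule, injury and leukocyte gene plotted moves upward without those libraries, as Hnf4a from −6.06 to 0.68 and Lyz2 from −4.45 to −1.15, while the cilium genes stay above 0.

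How far het replicates 1 and 4 carry the comparison can be read from their rank in each gene. Both lay above all other 6 libraries in 2391 of the 13762 genes (17.4%) and both below in 2469 (17.9%). Of the 419 genes with an unadjusted p under 0.05 and KO below het, they were the 2 highest libraries in 341 (81.4%). Of the 190 in the other direction they were the 2 lowest in 88 (46.3%). The median size of the log2 fold change over all 609 genes was 0.84 with 8 libraries, 0.29 without het replicates 1 and 4 and 1.1 without het replicates 2 and 3. Over all 13762 genes these medians were 0.16, 0.12 and 0.29. The 609 were selected by their p in the 8 libraries, so their size in that fit is a description. Of the 609, 47 kept an unadjusted p under 0.05 without het replicates 1 and 4.

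The counts of genes depended on the het libraries kept. Without het replicates 1 and 4, 0 of 14163 genes were called and 206 (1.45%) had an unadjusted p under 0.05. Without het replicates 2 and 3, 2035 of 14601 genes (13.9%) were called, 912 with the KO value higher (6.25%) and 1123 with it lower (7.69%). With animals 5 and 7 left out, 0 genes were called and 479 had an unadjusted p under 0.05, and with all 10 controls as labelled these counts were 0 and 483. Leaving out 1 library at a time gave 0 calls each time. The genes with an unadjusted p under 0.05 numbered 218 without het replicate 1 and 276 without het replicate 4, and 2149 without het replicate 2 and 944 without het replicate 3. Leaving out a KO library gave 271 to 624.

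**Figure D4:**
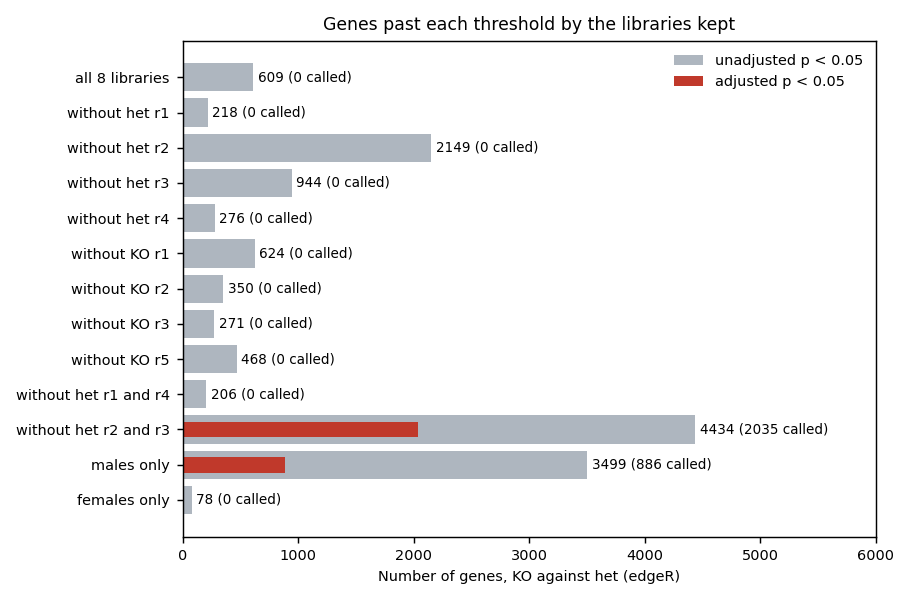
Number of genes with an unadjusted p under 0.05 (grey) and with an adjusted p under 0.05 (red) in edgeR's test of KO against het, by the libraries kept. Called genes appear in 2 settings, 2035 without het replicates 2 and 3 and 886 among males, and both settings have het replicates 1 and 4 as their only het libraries.

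Sex coincided with this split in het cells. The 2 male het libraries were replicates 1 and 4, so within the het group sex and the proximal tubule level cannot be told apart. The 3 male KO libraries had Hnf4a at 2.91, 0.487 and 0 CPM, so male KO cultures did not have the high level. Among males alone 886 genes were called, 357 with the KO value higher and 529 lower, and among females (2 het against 1 KO library, whose spread is assumed to equal that of the het pair) 0 were called, with 78 at an unadjusted p under 0.05. With sex as a term, 0 genes were called and 2464 had an unadjusted p under 0.05.

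The stimulated libraries, taken from the same replicate numbers (het replicates 1 to 4 and KO replicates 1, 2, 3 and 5), gave the KO against het comparison a separate set of libraries from the same 8 animals. Animal 5 is labelled KO in the control set and het in the stimulated set, and animal 7 the reverse. 0 of 13757 genes were called and 360 had an unadjusted p under 0.05 (2.62%). Hnf4a was 38.4, 0.665, 0.130 and 38.3 CPM in het and 0.632, 0.241, 0.224 and 0.358 CPM in KO, and Havcr1 was 1770, 124, 253 and 1639 CPM in het and 89.0 to 385 CPM in KO. The high het libraries were again replicates 1 and 4, which came from animals 1 and 9 in both states. Side by side with the values of untreated cells, the median log2 fold change after stimulation was −1.11 for endocytosis genes, −0.63 for transporters, −1.46 for enzymes and −3.15 for leukocyte markers.

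The 10 genes of lowest p in each direction are described next, none of which passed the test (adjusted p = 0.792 for each in edgeR's test). With KO above het these were Ccdc151, Trim5, Med15, Pcdhgb4, Pcdhga8, Tent5c, Cyp26b1, Cadm1, Rpgr and Foxj1. Med15, a Mediator subunit, was 84.3, 97.4, 75.9 and 76.4 CPM in het and 115, 110, 110 and 103 CPM in KO, with all KO libraries above all het libraries and a log2 fold change of 0.38 ± 0.099. The antiviral factor Trim5 was 1.02 to 1.59 CPM in het and 2.33 to 2.71 CPM in KO, again without overlap, and shares sequence with neighbouring Trim genes, so its counts are uncertain. Cyp26b1, which degrades retinoic acid, was 0.893, 1.79, 1.91 and 2.20 CPM in het and 8.39, 4.17, 1.93 and 6.27 CPM in KO. The poly(A) polymerase Tent5c was 4.66 to 9.25 CPM in het and 10.1 to 14.2 CPM in KO, and the adhesion molecule Cadm1 was 90.1 to 126.7 CPM in het and 127 to 166 CPM in KO. Of these, Cyp26b1 overlapped between the groups and Tent5c and Cadm1 did not. Groups did not overlap in 123 genes with KO higher (0.894% of those tested) and in 132 with KO lower (0.959%). Both shares were below 1 in 70, the share that random labels of 4 and 4 libraries give in each direction. Without het replicates 1 and 4 the fitted values were 0.34 for Med15, 0.89 for Trim5, 1.49 for Cyp26b1, 0.55 for Tent5c and 0.42 for Cadm1. In the left-out controls Med15 was 104 CPM in het replicate 5 and 110 CPM in KO replicate 4, so the former lay above the lowest KO library, and with all 10 controls Tent5c moved from 0.81 to 0.41. The protocadherin genes belong to a cluster whose transcripts share exons, so their single values are not given.

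With KO below het the 10 were Slc5a7, Nckap1l, Ssbp1, Clec7a, Ndufa2, Unc93b1, Pex2, Glyat, Rassf6 and Gla. Ndufa2, a subunit of respiratory complex I, was 43.3, 40.6, 43.6 and 38.5 CPM in het and 33.4, 34.3, 36.4 and 31.4 CPM in KO. Ssbp1, which binds single-stranded mitochondrial DNA, was 28.7, 25.4, 30.1 and 29.0 CPM in het and 23, 22.9, 22.6 and 23 CPM in KO. Both genes separated the groups in all 8 libraries by a small amount, with log2 fold changes of −0.30 ± 0.083 and −0.31 ± 0.086 that were −0.31 and −0.28 without het replicates 1 and 4. The choline transporter Slc5a7 was 16.2, 4.02, 12.7 and 11.9 CPM in het and 3.90, 3.79, 2.86 and 1.31 CPM in KO, and its −1.92 ± 0.48 became −1.48. Glyat, a glycine acyltransferase of the proximal tubule and liver, was 60.6, 1.02, 0.929 and 65.2 CPM in het and 0.292 to 1.46 CPM in KO, and its −5.32 ± 1.52 became −0.29. Clec7a and Nckap1l, genes of blood-derived cells, were 0.984 to 15.9 and 1.15 to 6.45 CPM in het and 0.163 to 0.657 and 0.365 to 0.993 CPM in KO. At 15.9 and 6.45 CPM both were highest in het replicate 4, where the leukocyte markers were highest as well. For both genes all het libraries lay above all KO libraries, as for 0.959% of genes tested. Their log2 fold changes of −3.81 ± 1.05 and −2.10 ± 0.57 became −1.39 and −1.47 without het replicates 1 and 4. The lysosomal galactosidase Gla was 18.0 to 28.5 CPM in het and 14.1 to 17.1 CPM in KO, with −0.53 becoming −0.30, and the peroxisomal Pex2 went from −0.33 to −0.22. The left-out KO replicate 4 had Ssbp1 at 28.9 CPM, inside the het range, and Ndufa2 at 33.9 CPM, inside the KO range. With all 10 controls Unc93b1, which carries nucleic-acid sensors, moved from −1.09 to −0.36, Nckap1l from −2.10 to −1.25 and Gla from −0.53 to −0.30.

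**Figure D5:**
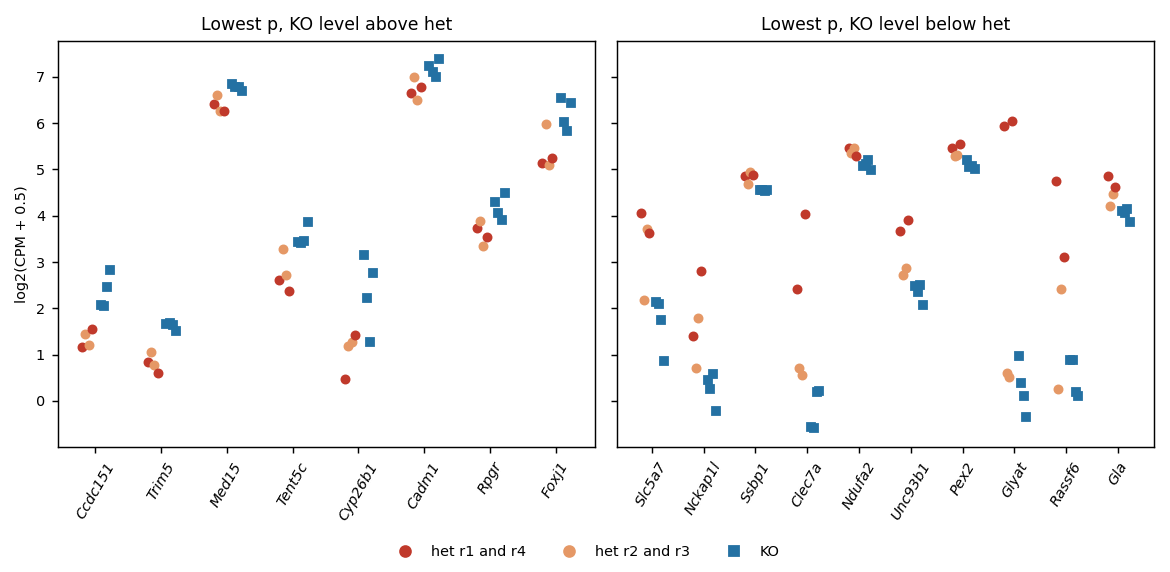
Log2(CPM + 0.5) in each library of 18 of the 20 genes with the lowest p, het as circles and KO as squares, with het replicates 1 and 4 in dark red. Ssbp1 and Ndufa2 separate the groups by less than 1 log2 unit in all 8 libraries, and Glyat is high in het replicates 1 and 4 only.

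Foxj1, Ccdc151 and Rpgr, genes of cilia, were among the 10 with KO above het, and a list of 50 motile cilium genes was assembled after their values were seen. Foxj1, the factor that switches on the motile cilium genes, was 34.7, 63.1, 33.7 and 37.6 CPM in het and 93.3, 64.5, 56.3 and 85.5 CPM in KO. Het replicate 2 lay above KO replicate 3, and the other het libraries lay below all KO libraries. Its log2 fold change was 0.82 ± 0.25 (unadjusted p = 0.0103) and 0.63 without het replicates 1 and 4. Ccdc151, which docks outer dynein arms, was 1.74, 2.23, 1.80 and 2.46 CPM in het and 3.73, 3.63, 5.02 and 6.57 CPM in KO, with no overlap and a log2 fold change of 1.20 ± 0.28 that was 1.23 without those 2. Maats1, an axonemal protein, was 0.536, 0.446, 0.219 and 0.154 CPM in het and 1.51, 1.14, 1.29 and 1.46 CPM in KO, also without overlap, at a low level in every library.

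Of the 50 cilium genes 47 were detected and 29 tested, 27 of them with a positive fitted difference (49.6% of all genes) and 6 with an unadjusted p under 0.05 (1.38% of all genes in that direction), but the list was chosen for this direction and its counts carry no test. Drc1, with an RFX match 11 bases before its start, was 5.13, 8.42, 3.22 and 6.75 CPM in het and 14.2, 9.97, 7.595 and 10.7 CPM in KO. Cfap44, with 2 matches, was 0.656 to 2.35 CPM in het and 1.08 to 4.89 CPM in KO. The groups overlapped in both. Rfx3, a factor that binds such motifs, was level at 11.9 to 13.6 CPM in het and 10.9 to 15.3 CPM in KO. Mcidas and Ccno, genes of multiciliated cells, stayed at 0.134 CPM or less. The median log2 fold change of the list was 0.59 and 0.63 without het replicates 1 and 4.

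The cilium values were not carried by het replicates 1 and 4, but they depended on other libraries. The median was 0.27 without KO replicate 5, the highest library, and 0.35 without het replicate 3, the lowest. In the control libraries left out, Foxj1 was 30.9 CPM in het replicate 5 and 29.9 CPM in KO replicate 4, a KO value below every het value of the 8. As given above, these 2 libraries had induced interferon targets, and the part of that in the Foxj1 values was not tested. With all 10 controls the median was 0.51. After stimulation Foxj1 was 11.5, 29.6, 57.2 and 11.9 CPM in het and 47.4, 20.6, 15.5 and 17.2 CPM in KO, and the median of 25 cilium genes was 0.038, with 13 positive.

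The ligands of Ptprz1 and of the CSF1 receptor are given by role. Il34, which binds both receptors, was 40.9, 56.1, 36.7 and 43.8 CPM in het and 52.8, 57.2, 55.8 and 70.3 CPM in KO. The groups overlapped through het replicate 2. The log2 fold change was 0.41 ± 0.15 with a 95% interval of 0.064 to 0.75 (unadjusted p = 0.0255) and 0.35 without het replicates 1 and 4. Csf1 was 101 to 186 CPM in het and 126 to 185 CPM in KO (interval −0.28 to 0.63). Their receptor Csf1r was 15.98, 10.2, 5.03 and 40.3 CPM in het and 5.32 to 15.4 CPM in KO, with the highest value in het replicate 4, where leukocyte markers were highest as well. The matrix ligand Tnc was 952, 7925, 3028 and 1364 CPM in het and 3382 to 7339 CPM in KO, and pleiotrophin (Ptn) and midkine (Mdk) stayed at 4.89 CPM or less. The adhesion partner Nrcam was 4.91, 1.47, 7.32 and 4.81 CPM in het and 1.29 to 3.21 CPM in KO, with −1.26 ± 0.50 (unadjusted p = 0.0365). Of 22 listed genes 13 were tested, 1 with an unadjusted p under 0.05 in each direction. Of all genes 1.38% were under it with KO above het and 3.04% with KO below.

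Genes of 12 known or proposed substrates and partners of the phosphatase were all tested. Only the receptor Erbb4 had an unadjusted p under 0.05 (3.04% of all genes with KO below het). It was 75.1, 4.97, 7.76 and 94.4 CPM in het and 3.21 to 19.5 CPM in KO, high in het replicates 1 and 4. Its −2.43 ± 1.03 became 0.42 without them. Of the other 11, the 95% interval lay within 1 log2 unit of 0 for 6, among them Ctnnb1 (−0.23 to 0.35), Git1 (−0.34 to 0.15), Arhgap35 (−0.22 to 0.25) and Pxn (−0.09 to 0.53). It was wider for the kinase Fyn (−0.31 to 1.44), the scaffolds Magi3 (−0.15 to 1.05) and Dlg4 (−0.31 to 1.015), Afap1l2 (−1.23 to 0.63) and the adducin Add2 (−1.90 to 0.90).

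The interferon list, by which the 2 left-out controls were recognised, is a description only. In the 8 libraries the inducible nitric oxide synthase Nos2 was at most 0.219 CPM. Gbp2 was 9.20, 15.9, 15.3 and 9.21 CPM in het and 19.2, 17.3, 16.1 and 27.0 CPM in KO, and the peptide transporter Tap1 was 18.4 to 20.4 CPM in het and 21.7 to 27.0 CPM in KO. KO lay above het in both genes, the 2 of 16 tested members without overlap (0.894% of all genes in that direction). For Gbp2 the nearest values were 15.9 and 16.1 CPM. Without het replicates 1 and 4 the log2 fold change went from 0.68 to 0.35 for Gbp2 and from 0.31 to 0.29 for Tap1. Of the 16, 13 had a positive fitted difference (49.6% of all genes) and 3 a negative one, Ifit3 (−1.58 ± 0.84) among them. Irf1 was 19.95 to 31.7 CPM in het and 19.8 to 30.5 CPM in KO. The median of the list was 0.21, 0.067 without KO replicate 1, 0.48 without het replicates 1 and 4 and 0.79 with all 10 controls.

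Other lists held small or uneven differences. Among 16 imprinted genes tested, Zim1 was 10.9, 13.96, 11.8 and 19.4 CPM in het and 10.7, 7.37, 10.5 and 9.12 CPM in KO, without overlap (−0.58 ± 0.22, unadjusted p = 0.0272). It was the 1 of the 16 without overlap (0.959% of all genes with KO lower). It was also the 1 with an unadjusted p under 0.05 (3.04% of all genes with KO below het). The neighbouring imprinted gene Peg3 was 895, 593, 459 and 813 CPM in het and 391 to 559 CPM in KO, and its −0.52 became −0.12 without het replicates 1 and 4. The magnesium channel Trpm6 was 26.5, 31.6, 12.1 and 11.9 CPM in het and 41.8, 33.7, 30.3 and 56.2 CPM in KO (0.98 ± 0.37, unadjusted p = 0.0281). It was the 1 of 4 tested distal nephron genes with an unadjusted p under 0.05 (1.38% of all genes in that direction). Of the 4, 3 had a positive fitted difference and Scnn1a a negative one (−1.65 ± 0.77). The adhesion receptor Icam1 was 30.9, 9.88, 10.3 and 18.3 CPM in het and 7.30 to 10.1 CPM in KO. Among 11 NF-kB targets tested it was the 1 under that threshold (3.04% of all genes with KO below het). Its −0.98 ± 0.37 became −0.195 without het replicates 1 and 4. The immediate-early factor Nr4a1 was 2.30 to 4.10 CPM in het and 1.11 to 2.10 CPM in KO, without overlap. It was the 1 of 16 immediate-early genes tested without overlap (0.959% of all genes with KO lower). None of the 16 had an unadjusted p under 0.05, and their median was −0.027. None of 29 cell cycle genes had an unadjusted p under 0.05, and their median was −0.063.

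Genes next to Ptprz1 on chromosome 6 were followed because a targeted allele can carry flanking DNA of its donor strain. Of the 20 annotated neighbours on either side 34 were in the table, 13 were detected and 9 tested, with 0 at an unadjusted p under 0.05 and a median log2 fold change of −0.004. Fam3c, the nearest tested gene on 1 side, was 88.9 to 123 CPM in het and 105 to 135 CPM in KO (interval −0.098 to 0.48), and Aass, the nearest on the other, had an interval of −1.58 to 1.47. Iqub was 0, 1.47, 0.164 and 0.102 CPM in het and 2.97, 1.14, 1.23 and 2.55 CPM in KO, with 2.23 ± 1.07 (unadjusted p = 0.0699), and its groups overlapped through het replicate 2.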

How the data were processed

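Total RNA from primary tubular cells was made into directional libraries, per the labels' protocols. The authors deposited 1 table of whole-number values for 55891 genes in 20 libraries. The submitters' processing notes list Salmon 1.10.2, FastQC 0.11.9, DESeq2 1.45.3 and R 4.4.1, with build GRCm39, so the deposited values were treated as estimated counts. No source used here states the strand setting or filters. Symbols came from GENCODE release 21 (another build, used for names and gene order only) for 92.0% of IDs, which hold 98.8% of counts.

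Groups and replicates came from the titles. In R 4.3.3, edgeR 4.0.16 (TMM, filterByExpr, robust quasi-likelihood fit) was run on the 8 libraries without a block, tested on simulated data, and p-values were adjusted over all 13762 genes. The simulated counts had the same relative spread for every gene and no split within a group. They therefore do not check the fit for a split such as that of the het libraries. An SE is the log2 fold change divided by the square root of F. CPM used TMM sizes over all 20 libraries. The limit given for a count of 0 covers counting error only. DESeq2 1.42.0, limma-voom 3.58.1, other scalings and filters, left-out libraries, a sex term and a replicate block were alternatives. Males only and females only were added after seeing the data. Libraries sharing a replicate number deviated with correlations of 0.476, −0.0757 and 0.282. Pairs of unlike number were not set beside these, so the correlations do not decide whether the numbers are pairs. The main fit did not take them as pairs.

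The members and the gene lists were chosen with earlier results of these data known. With no called gene, named genes are the 10 of lowest p in each direction (mean log2 CPM of at least 1), Ptprz1, Il34, Csf1, Csf1r and up to 4 genes per list by lowest p. Others named were picked after their values were seen. Some genes and a promoter motif are not reported here.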

Additional observations from a re-analysis of the deposited data

Results flagged for a closer look

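In 84 groups of 4 libraries tested for a single distant value, 4 held one, and chance gives about 1 in 20. The summed level of proximal tubule enzymes in KO replicate 5 was 324 CPM, against 208 to 223 CPM in the other KO libraries. The summed level of imprinted genes in KO replicate 5 was 1028 CPM, lowest of the KO libraries. Tent5c was 14.2 CPM in KO replicate 5, against 10.1 to 10.5 CPM in the other KO libraries. Foxj1 was 63.1 CPM in het replicate 2, against 33.7 to 37.6 CPM in the other het libraries, a value that lies inside the KO range.

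In the control libraries left out of the comparison, Nos2 was 82.8 CPM in het replicate 5 and 202 CPM in KO replicate 4, whereas the highest value in the 8 libraries used was 0.219 CPM.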

How the results depend on the processing

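Under the scalings, filters, tools and single left-out libraries tried, the count of called genes remained 0. It was 2035 without het replicates 2 and 3 and 886 among males alone. Leaving out each library in turn gave 0 called genes each time and 62.0 to 68.9% of genes with an interval within 1 log2 unit of 0, against 68.6% with all 8. That share was 38.6% with no filter on low counts, when 24448 genes, many of few counts, were tested. With a replicate block 0 genes were called and 300 had an unadjusted p under 0.05 (609 without it), so the block changed no call. The KO minus het difference of Ptprz1 was −0.0875 CPM, ran from −0.122 to −0.0366 CPM with each library left out, and was 0.0049 CPM with all 10 controls. None of the 20 genes of lowest p reversed under these alternatives, and 17 of their values reached an adjusted p under 0.05, all without het replicates 2 and 3 or among males. Without het replicates 1 and 4 the sign turned for Hnf4a (−6.06 to 0.68), Keg1 (−7.01 to 0.24), Slc6a18 (−5.44 to 0.97), Erbb4 (−2.43 to 0.42) and Csf1r (−0.85 to 0.39). Of 528 list medians under alternatives 47 moved by more than the spread. The depth does not resolve Ptprz1, and 4 libraries a group leave intervals wider than 1 log2 unit for genes that vary between cultures.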
